A study of Arabidopsis thaliana with 2 samples.

Results

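The ERF, DREB and CRF genes of Arabidopsis thaliana were examined in seedlings of ago1-36 and of the wild type. These are genes of the AP2/ERF family whose products carry a single AP2 DNA-binding domain, and a list of 53 of them was drawn up by name (ERF, RAP2, CBF/DREB, CRF, RRTF1, TDR1, ORA47, ORA59 and relatives), with the values of these libraries already known. The authors' table of 11666 listed genes held 40 of the 53. All 53 carry the AP2/ERF domain note in the TAIR10.1 annotation, as do 46 other listed genes that are not in the list. The groups were ago1-36 seedlings, a mutant line of ARGONAUTE1 (AGO1), and wild-type seedlings, both grown for 12 days on MS medium with 3% sucrose at 23 °C under 16 h of light and 8 h of darkness. Each genotype had 1 library, of about 13590000 reads for ago1-36 and 13670000 for the wild type. The number of seedlings behind a library is not given in the labels. Without replicates, every difference below describes these 2 libraries only.

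ERF proteins bind the GCC box of genes that answer ethylene, jasmonate and pathogens, while DREB proteins bind the dehydration-responsive element (DRE) of genes that answer cold, drought and heat. CRF proteins, the cytokinin response factors, act beside the cytokinin pathway in leaf, embryo and root development. Many ERF and DREB genes are early-response genes, whose transcripts build up quickly after touch, wounding, cold or pathogen signals, and some family members are repressors that limit the same outputs. Unlike their AP2-type relatives of the miR172 pathway, they are not known as the classic microRNA targets through which AGO1 acts.

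Levels are the authors' RPKM, which scales the reads of a gene by its length in kilobases and by 1000000 reads of the library. Ratios are log2 of RPKM plus 1, ago1-36 over wild-type, and folds are plain RPKM ratios with 95% counting intervals from reads recovered from the table, which hold counting error only. AGO1 itself, the mutated gene, had 5.59 RPKM in ago1-36 and 48.6 RPKM in the wild type, 8.7-fold lower (interval 7.65 to 9.89). In these seedling samples, fewer cells of a type and less RNA per cell cannot be told apart.

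Most of the family was higher in ago1-36. All 40 listed members reached 1 RPKM in at least 1 library, and 28 of them (70.0%) were at least 2-fold higher in ago1-36, against 19.6% of all 11373 listed genes that reached that level. HRE2 was the only member at least 2-fold lower on that scale (2.5%, against 8.38% of listed genes). No member was 4-fold or more lower, against 1.43% of listed genes, and none 16-fold or more, against 0.0967%. At least 4-fold higher were 24 members, against 6.14% of listed genes, and at least 16-fold higher were 7, against 0.633%. The median ratio of the members was 2.54 on the log2 scale, against -0.04 for all listed genes. Since the members were chosen with these values known, the counts describe the list and are no test of it.

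How low the members stood in the wild type bears on these counts. In the wild type, 11 members lay under 1 RPKM and entered through their ago1-36 value alone, so they had to be higher, while HRE2 entered through its wild-type value alone. Among the 29 members at 1 RPKM or more in the wild type, 17 (58.6%) were at least 2-fold higher, against 15.6% of listed genes at that level. Among the 18 at 5 RPKM or more, 8 (44.4%) were, against 11.1%. The table holds no gene with a GFOLD score of 0 (the authors' fold change made conservative for low counts). Genes near 0 on the authors' deposited scale are therefore scarce in it. Between ratios of 0.1 and 0.3 it has only 38 genes, so the lack of members there follows from the table as much as from the genes. Ratios just below 0 are outside that range, and the median of all listed genes lies there (-0.04), but no member did. The scale also matters for the genome-wide background, since by the authors' deposited log2 fold changes the median of these listed genes is -0.23, and higher genes make up 55.7% of the 2-fold differences instead of 70.0%. Among the members, that same deposited column gave 28 higher and 2 lower.

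**Figure D1:**
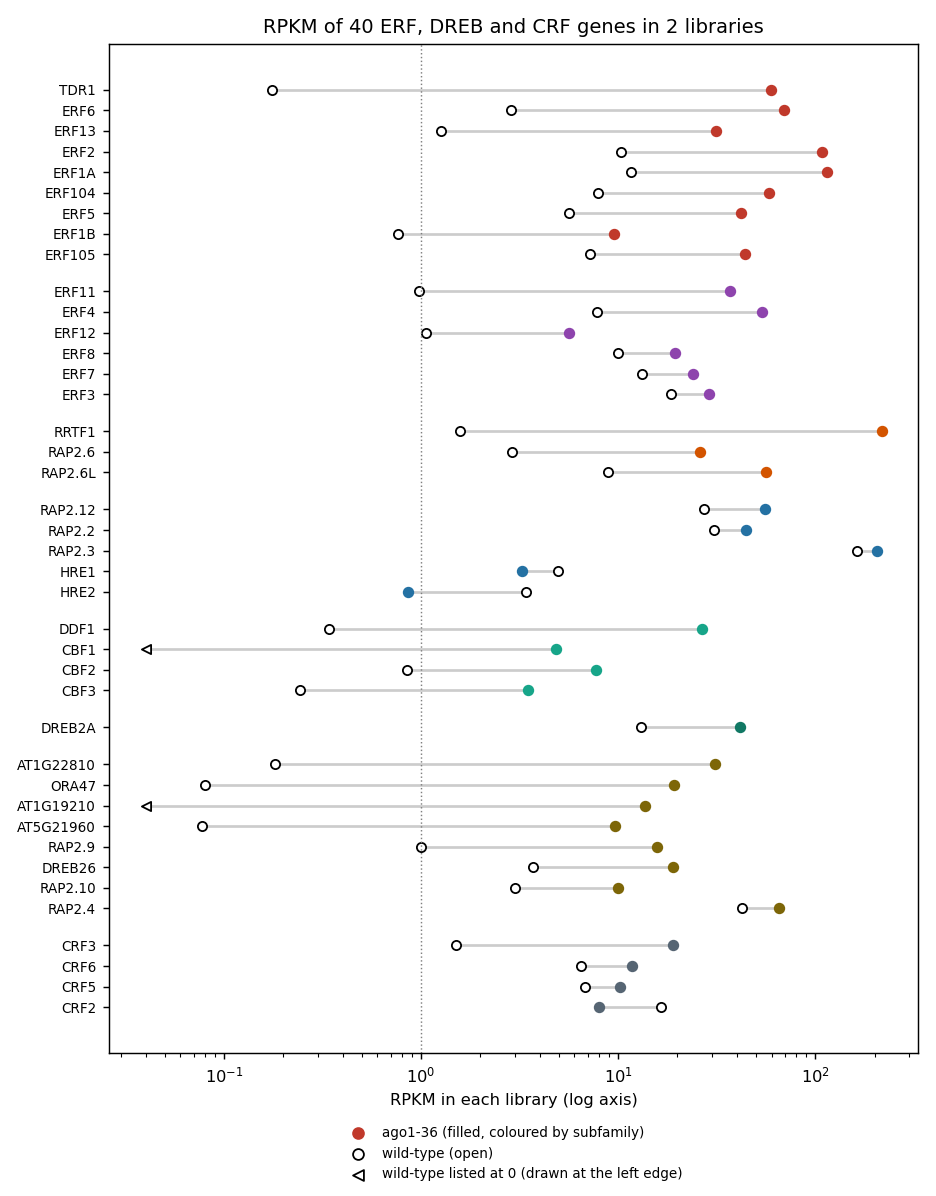
RPKM of the 40 listed members on a log axis, filled points for ago1-36 and open points for the wild type, with 1 library each and members grouped by subfamily. The ago1-36 point lies to the right of the wild-type point for 37 members and to the left for HRE1, HRE2 and CRF2.

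The order of the members by level differed between the libraries. In ago1-36 the most abundant members were RRTF1 (217 RPKM), RAP2.3 (206 RPKM), ERF1A (115 RPKM) and ERF2 (108 RPKM). In the wild type they were RAP2.3 (164 RPKM), RAP2.4 (42.7 RPKM), RAP2.2 (30.5 RPKM) and RAP2.12 (27.3 RPKM). Summed over the 40 members, RPKM came to 1634 in ago1-36 and 439 in the wild type, a 3.72-fold difference. The leading wild-type members all stayed under 2-fold on the scale with 1 added, while RRTF1, ERF1A and ERF2 overtook most of them in ago1-36.

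The 250 bases before the annotated gene start are shown for the 4 members with the highest ratios and the 2 with the lowest on the scale with 1 added, because these mark the ends of the family's range. They are read 5' to 3' on the gene's strand from the TAIR10.1 genome of RefSeq, and they hold no annotated exon of another gene. Capitals mark CACGTG (the G-box core), TTGAC (the W-box core bound by WRKY factors), TATAAA (the TATA box core), CCGAC (the DRE core), GCCGCC (the GCC box core) and CGCGTT (the core of a rapid stress response element), searched on both strands. No 2 different motifs overlap in these windows.
RRTF1, chr4:16451626-16451875 (plus strand): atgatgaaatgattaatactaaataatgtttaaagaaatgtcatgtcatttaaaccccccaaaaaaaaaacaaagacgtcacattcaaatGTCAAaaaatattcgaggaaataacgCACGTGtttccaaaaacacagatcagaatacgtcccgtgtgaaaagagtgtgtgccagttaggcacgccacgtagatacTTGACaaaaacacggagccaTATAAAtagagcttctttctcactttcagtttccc
TDR1, chr3:8290165-8290414 (minus strand): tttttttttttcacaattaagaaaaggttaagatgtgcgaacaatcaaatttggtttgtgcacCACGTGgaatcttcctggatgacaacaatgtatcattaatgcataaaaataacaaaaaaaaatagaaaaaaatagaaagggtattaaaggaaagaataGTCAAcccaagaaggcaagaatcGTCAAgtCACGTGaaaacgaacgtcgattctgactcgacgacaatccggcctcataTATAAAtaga
AT1G22810, chr1:8075038-8075287 (minus strand): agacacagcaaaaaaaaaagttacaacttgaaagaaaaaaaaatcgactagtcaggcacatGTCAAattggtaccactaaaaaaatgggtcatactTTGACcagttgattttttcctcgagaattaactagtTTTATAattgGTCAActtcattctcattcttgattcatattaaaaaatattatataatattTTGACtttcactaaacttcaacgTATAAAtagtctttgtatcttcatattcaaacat
DDF1, chr1:4291018-4291267 (minus strand): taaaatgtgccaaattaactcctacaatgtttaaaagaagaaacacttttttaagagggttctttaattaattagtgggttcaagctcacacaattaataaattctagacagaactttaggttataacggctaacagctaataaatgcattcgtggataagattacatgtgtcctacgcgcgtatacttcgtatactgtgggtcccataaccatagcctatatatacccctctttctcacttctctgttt
HRE2, chr2:19503703-19503952 (minus strand): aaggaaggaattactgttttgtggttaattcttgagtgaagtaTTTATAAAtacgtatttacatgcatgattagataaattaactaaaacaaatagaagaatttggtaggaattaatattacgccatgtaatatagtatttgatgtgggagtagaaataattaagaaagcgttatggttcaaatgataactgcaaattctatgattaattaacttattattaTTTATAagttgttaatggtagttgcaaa
CRF2, chr4:12375872-12376121 (plus strand): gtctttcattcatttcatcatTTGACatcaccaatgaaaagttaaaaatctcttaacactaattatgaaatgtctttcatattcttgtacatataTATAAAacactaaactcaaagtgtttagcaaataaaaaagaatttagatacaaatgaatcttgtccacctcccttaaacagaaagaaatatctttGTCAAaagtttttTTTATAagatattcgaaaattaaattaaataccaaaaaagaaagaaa
RRTF1 holds 1 G-box core, 2 W-box cores and 1 TATAAA, and TDR1 holds 2 G-box cores, 2 W-box cores and 1 TATAAA. AT1G22810 holds 4 W-box cores and 2 TATAAA, CRF2 holds 2 W-box cores and 2 TATAAA, and HRE2 holds only TATAAA, 3 times. None of the searched letters occur in the DDF1 window. DDF1 is among the 4 highest only with 1 RPKM added: by plain RPKM ratio ORA47, whose window holds TATAAA, takes its place. TATAAA was present in 6 of the 7 members at least 16-fold higher (85.7%), against 47.3% of kept listed genes. It was added to the search after these windows had been read, and the 7 include the 4 high members shown, so this share is no test. Of all 40 members with values 65.0% held it, and of the 12 not 2-fold higher 66.7% did.

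The ERF activators of group IX drive GCC-box genes in ethylene, jasmonate and pathogen responses. Values were listed for 9 of 12 members, and all 9 passed 4-fold in ago1-36, against 6.14% of listed genes. The ratios ran from 2.46 to 5.70, with a median of 3.20. TDR1 and ERF1B entered through their ago1-36 value alone, so they had to be higher. Their summed RPKM was 539 in ago1-36 and 47.8 in the wild type, 11.3-fold higher. TDR1, a regulator of defence also known as ERF98, had 59.9 RPKM (342 reads) in ago1-36 and 0.174 RPKM (1 read) in the wild type. Its ratio of 344 has a counting interval from 61.3 to 13627, so only its lower limit is informative.

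ERF6, a substrate of stress-activated MAP kinases, had 69.6 RPKM in ago1-36 and 2.87 RPKM in the wild type (24.2-fold, 95% counting interval 17.7 to 34.0). Its close relative ERF5, which acts with it in osmotic stress and chitin responses, had 41.9 RPKM in ago1-36 and 5.65 RPKM in the wild type (7.42-fold, interval 5.96 to 9.33). The intervals of these relatives do not overlap, and ERF6 had the larger fold. ERF13, another activator of the group, had 31.4 RPKM in ago1-36 and 1.26 RPKM in the wild type (25.0-fold, interval 15.2 to 44.2).

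The most abundant activators in ago1-36 had moderate wild-type levels. ERF1A had 115 RPKM in ago1-36 and 11.7 RPKM in the wild type (9.87-fold, interval 8.39 to 11.7). ERF2 had 108 RPKM in ago1-36 and 10.3 RPKM in the wild type (10.5-fold, interval 8.80 to 12.6). Both activate transcription from the GCC box, and their intervals overlap. ERF104, a substrate of the kinase MPK6 in flagellin responses, had 58.5 RPKM in ago1-36 and 7.91 RPKM in the wild type (7.40-fold, interval 6.07 to 9.09).

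ERF105, linked to freezing tolerance, had 44.2 RPKM in ago1-36 and 7.2 RPKM in the wild type (6.15-fold, interval 4.86 to 7.86), the smallest fold of the group. ERF1B, which integrates ethylene and jasmonate signals and activates the defensin PDF1.2, had 9.57 RPKM (125 reads) in ago1-36 and 0.761 RPKM (10 reads) in the wild type. It was 12.6-fold higher (interval 6.61 to 26.9) and the least abundant of the 9 in ago1-36. ERF14, ERF15 and ORA59, the other listed names of this group, were not analysed here.

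The group VIII repressors carry an EAR motif and shut down GCC-box genes. Of 6 members with values, 3 were at least 2-fold higher in ago1-36, against 19.6% of listed genes. The other 3 lay between, and the median ratio of the 6 was 1.28. ERF11, which represses ethylene synthesis genes, had 36.9 RPKM (488 reads) in ago1-36 and 0.978 RPKM (13 reads) in the wild type (37.8-fold, interval 21.9 to 71.4). ERF11 entered through its ago1-36 value alone, so it had to be higher. ERF4, a negative regulator of jasmonate-responsive defence, had 53.5 RPKM in ago1-36 and 7.82 RPKM in the wild type (6.84-fold, interval 5.65 to 8.35). ERF12 had 5.60 RPKM in ago1-36 and 1.06 RPKM in the wild type (5.26-fold, interval 2.88 to 10.4).

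The other repressors were more abundant in the wild type and differed less. ERF8 had 19.4 RPKM in ago1-36 and 9.98 RPKM in the wild type (1.94-fold, interval 1.56 to 2.43). ERF7, a repressor in abscisic acid responses, had 24.1 RPKM in ago1-36 and 13.3 RPKM in the wild type (1.82-fold, interval 1.59 to 2.07). ERF3 had 28.9 RPKM in ago1-36 and 18.5 RPKM in the wild type (1.57-fold, interval 1.36 to 1.81). Repressors therefore split into ERF11, ERF4 and ERF12, whose intervals lie wholly above those of ERF8, ERF7 and ERF3, and these last 3, which overlap each other. ERF9 and ERF10 were not analysed here.

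RRTF1, a redox-responsive regulator that links jasmonate to auxin synthesis in roots, had the largest ratio of the members on the scale with 1 added (6.4). By plain RPKM ratio TDR1, ORA47 and AT1G22810, with 1 or 2 wild-type reads each, stood above it, as did TDR1 in the authors' deposited log2 fold change (7.25). RRTF1 had 217 RPKM (4091 reads) in ago1-36 and 1.58 RPKM (30 reads) in the wild type, 137-fold higher (interval 95.9 to 204). Ranked by RPKM among listed genes, it stood above 96.2% of them in ago1-36 and above 12.5% in the wild type. The authors' deposited table gives it a log2 fold change of 6.87 and a GFOLD score of 6.31. It shares 226 of its 1385 exon bases with the listed gene AT4G34412 on the opposite strand, which had 33.7 RPKM in ago1-36 and 5.75 RPKM in the wild type, and without strand information reads in the shared bases cannot be told apart. The RAP2.6 pair of the same group, which acts in wounding, salt and regeneration responses, was also higher. RAP2.6 had 25.9 RPKM in ago1-36 and 2.89 RPKM in the wild type (8.94-fold, interval 6.32 to 13.0), and RAP2.6L 56.0 RPKM in ago1-36 and 8.87 RPKM in the wild type (6.31-fold, interval 5.28 to 7.60).

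**Figure D2:**
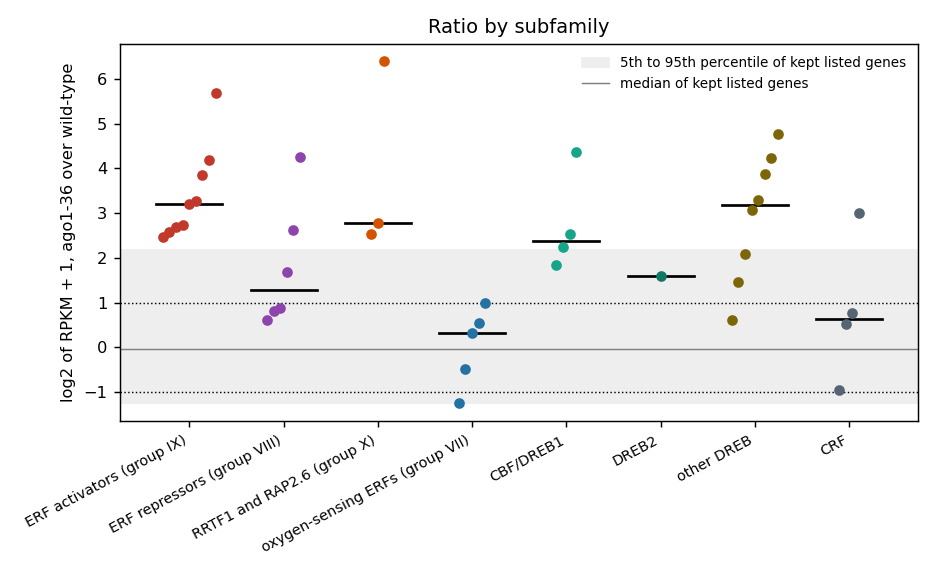
Ratio (log2 of RPKM plus 1, ago1-36 over wild-type) of each member by subfamily, with the subfamily median as a black bar, the 5th to 95th percentile of all kept listed genes in grey and 2-fold as dotted lines. All 9 group IX members lie above the grey band, whereas group VII lies between -1.25 and 0.99.

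The CBF/DREB1 genes, which switch on cold-regulated genes, were near 0 in the wild type and at low to moderate levels in ago1-36. All 4 entered through their ago1-36 value, so their direction was fixed by the filter. CBF1 had 4.82 RPKM (62 reads) in ago1-36 and 0 reads in the wild type. Against a floor of 3 reads in that library it was 20.8-fold higher (lower limit of the counting interval 16.4). CBF2 had 7.71 RPKM (99 reads) in ago1-36 and 0.852 RPKM (11 reads) in the wild type (9.05-fold, interval 4.85 to 18.7). CBF3 had 3.48 RPKM (43 reads) in ago1-36 and 0.242 RPKM (3 reads) in the wild type (14.4-fold, interval 4.61 to 72.6).

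These 3 genes form a run on chromosome 4 from 13015250 to 13022996 in TAIR10.1, on the same strand, and their coding sequences are 85.0% to 86.9% identical, so the split of reads among them is uncertain. DDF1, a relative that lowers gibberellin and raises salt tolerance, had 26.6 RPKM (389 reads) in ago1-36 and 0.340 RPKM (5 reads) in the wild type (78.3-fold, interval 33.2 to 242). It was more abundant than any CBF gene in ago1-36, by RPKM.

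Inducers of the CBF genes and their cold-regulated outputs formed a mixed list. Of its 7 listed genes, 3 were at least 2-fold higher (42.9%, against 19.6% of listed genes), none lower, and the median ratio was 0.75. The chloroplast protectants COR15A and COR15B had 74.3 and 31.9 RPKM in ago1-36, against 22.2 and 11.1 RPKM in the wild type. Their folds were 3.34 (interval 2.89 to 3.87) and 2.88 (interval 2.28 to 3.65), and the list's other ratios ran down to -0.21.

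DREB2A, a regulator of drought and heat genes that is also controlled at the protein level, had 41.6 RPKM in ago1-36 and 13.0 RPKM in the wild type (3.19-fold, interval 2.77 to 3.68). DREB2B was not analysed here. HSFA3, a heat shock factor that DREB2A activates, had 4.68 RPKM in ago1-36 and 2.46 RPKM in the wild type, and DRIP1, a ubiquitin ligase that marks DREB2A for degradation, had 10.6 RPKM in ago1-36 and 6.07 RPKM in the wild type. Both stayed under 2-fold, at 1.90 (interval 1.32 to 2.78) and 1.75 (interval 1.45 to 2.11).

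Among the other DREB genes 7 of 8 with values were at least 2-fold higher (87.5%, against 19.6% of listed genes), with a median ratio of 3.18. Of the 8, 4 entered through ago1-36 alone, so they had to be higher. ORA47, a jasmonate-responsive activator of jasmonate synthesis genes, had 19.3 RPKM (241 reads) in ago1-36 and 0.0797 RPKM (1 read) in the wild type, a ratio of 242 (interval 43.1 to 9614). The A-5 subfamily genes AT1G22810 and AT5G21960 had 341 and 124 reads in ago1-36, against 2 and 1 in the wild type, ratios of 172 (interval 47.1 to 1422) and 125 (interval 22.0 to 4966). AT1G19210, of the same subfamily, had 13.7 RPKM (132 reads) in ago1-36 and 0 reads in the wild type, 44.3-fold higher against the floor (lower limit of the counting interval 35.5). AT1G22810 shares 127 of its 807 exon bases with AT1G22800 on the opposite strand, which was 2.72-fold higher. These genes were close to silent in the wild-type library and reached 9.64 to 31.1 RPKM in ago1-36.

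DREB genes that repress or act in other settings were less extreme. RAP2.9 and RAP2.10, which join a DREB domain to an EAR repression motif, had 15.7 and 9.98 RPKM in ago1-36, against 1.0 and 3.0 RPKM in the wild type. Their folds were 15.7 (interval 7.73 to 37.2) and 3.33 (interval 2.34 to 4.82). DREB26 had 19.0 RPKM in ago1-36 and 3.71 RPKM in the wild type (5.13-fold, interval 3.87 to 6.90). RAP2.4, known as WIND1 for its part in wound-induced dedifferentiation, was abundant in both libraries, at 65.7 RPKM in ago1-36 and 42.7 RPKM in the wild type, and stayed under 2-fold (1.54, interval 1.43 to 1.67). RAP2.1 and TINY were not analysed here.

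**Figure D3:**
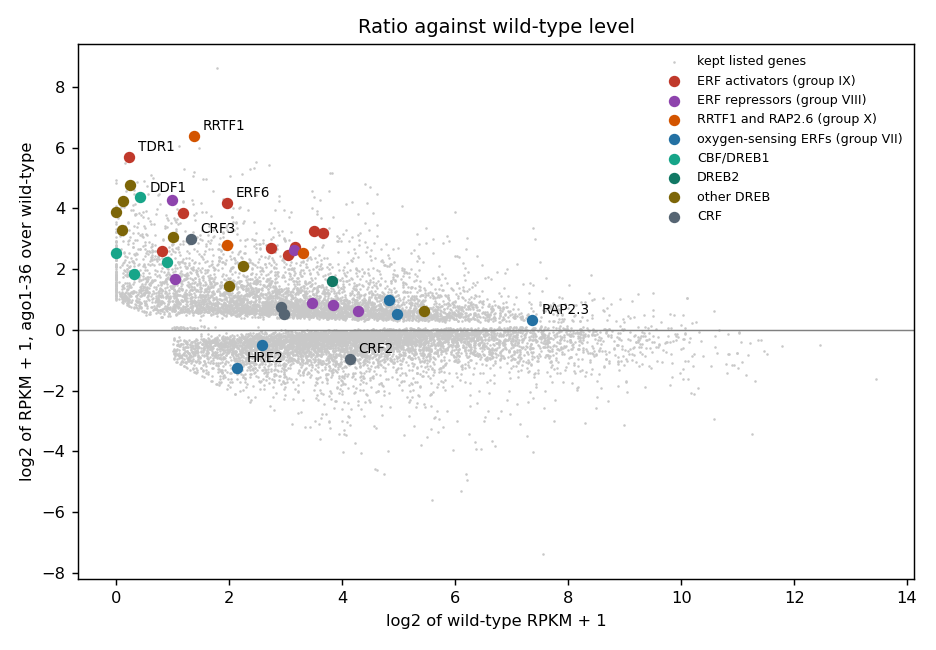
Ratio of each gene (log2 of RPKM plus 1, ago1-36 over wild-type) against its wild-type level, with kept listed genes in grey and members coloured by subfamily. Members with the highest ratios lie at the left, near 0 RPKM in the wild type, RAP2.3 at 164 RPKM in the wild type has a ratio of 0.33, and the empty strip above 0 is the range in which the table lists few genes.

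Group VII, the oxygen-sensing ERFs, had no member past 2-fold higher by RPKM plus 1. In air their proteins are broken down through an N-degron that starts with oxidation of a cysteine, and in low oxygen they persist and activate fermentation genes. HRE1 and HRE2 are induced by hypoxia, whereas RAP2.2, RAP2.12 and RAP2.3 are expressed constitutively. HRE2 had 0.860 RPKM (8 reads) in ago1-36 and 3.42 RPKM (32 reads) in the wild type, 3.98-fold lower in ago1-36 (interval 1.79 to 9.99). Its call rests on few reads.

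HRE1 had 3.24 RPKM (45 reads) in ago1-36 and 4.94 RPKM (69 reads) in the wild type (1.52-fold lower, interval 1.03 to 2.27). It shares 124 of its 1273 exon bases with P40 (AT1G72370), a ribosomal protein gene on the opposite strand at 1976 RPKM in ago1-36 and 2077 RPKM in the wild type, so its small read numbers are uncertain. The constitutive members were all higher, by factors of 1.26 to 2.03. RAP2.12 had 55.3 RPKM in ago1-36 and 27.3 RPKM in the wild type, 2.03-fold by plain RPKM ratio (interval 1.84 to 2.24) and 0.99 on the scale with 1 added, just under the 2-fold mark. RAP2.2 had 44.7 RPKM in ago1-36 and 30.5 RPKM in the wild type (1.47-fold, interval 1.33 to 1.62). RAP2.3 had 206 RPKM in ago1-36 and 164 RPKM in the wild type (1.26-fold, interval 1.2 to 1.33). On the scale of the authors' deposited log2 fold change, RAP2.3 stands at 0.15.

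The hypoxia genes that group VII activates were mixed, with no listed gene at least 2-fold higher. Of 7 listed hypoxia core outputs, 3 were at least 2-fold lower in ago1-36 (42.9%, against 8.38% of listed genes) and 4 lay between (median ratio -0.83). Of those 4, 3 were higher by less than 2-fold, and the list's summed level was 179 RPKM in ago1-36 and 170.3 RPKM in the wild type. LBD41, a hypoxia-induced transcription factor gene, had 3.94 RPKM in ago1-36 and 20.6 RPKM in the wild type (5.23-fold lower, interval 4.07 to 6.80), and AT5G66985 2.50 RPKM in ago1-36 and 8.28 RPKM in the wild type (3.31-fold lower, interval 1.93 to 5.96). The upper end of this list was a ratio of 0.72. In the list of N-degron machinery and feedback, all 4 listed genes were lower, 2 by at least 2-fold (against 8.38% of listed genes). PCO2, a cysteine oxidase that is itself hypoxia-induced, had 1.01 RPKM in ago1-36 and 5.26 RPKM in the wild type (5.20-fold lower, interval 3.07 to 9.33). HRA1, which curbs RAP2.12, had 8.17 RPKM in ago1-36 and 24.4 RPKM in the wild type (2.99-fold lower, interval 2.53 to 3.56).

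Cytokinin response factors went both ways. CRF3 had 19.0 RPKM in ago1-36 and 1.51 RPKM in the wild type (12.6-fold, interval 8.68 to 18.9). CRF2, also called TMO3 as a target of the auxin response factor MONOPTEROS, had 8.03 RPKM (200 reads) in ago1-36 and 16.5 RPKM (413 reads) in the wild type (2.05-fold lower, interval 1.73 to 2.44), and -0.95 on the scale with 1 added. CRF2 and CRF3, both known for roles in lateral root formation, thus stood on opposite sides, with intervals far apart.

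CRF6, which delays senescence under stress, had 11.7 RPKM in ago1-36 and 6.51 RPKM in the wild type (1.80-fold, interval 1.43 to 2.27). CRF5 had 10.3 RPKM in ago1-36 and 6.80 RPKM in the wild type (1.51-fold, interval 1.2 to 1.91). CRF1 and CRF4 were not analysed here, nor were the developmental and cuticle genes SHN1, PUCHI and LEP. Type-B response regulators, which carry the cytokinin signal to genes such as the CRFs, had 1 of 3 listed members at least 2-fold higher (33.3%, against 19.6% of listed genes), and the lowest ratio of the 3 was -0.29. ARR10 had 39.6 RPKM in ago1-36 and 16.9 RPKM in the wild type (2.35-fold, interval 2.1 to 2.62), and ARR2 25.3 RPKM in ago1-36 and 14.8 RPKM in the wild type (1.72-fold, interval 1.54 to 1.91).

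Several members are neighbours in the genome, and their ratios had the same direction. TDR1 and ERF1B are adjacent on chromosome 3 (8289379 to 8296604), on opposite strands, with ratios of 5.70 and 2.59. ERF12 and ERF11 are adjacent on chromosome 1 (9951762 to 9956980), with 1.68 and 4.26, and ERF6 and ERF1A on chromosome 4 (9752824 to 9760391), with 4.19 and 3.20. ERF2 and ERF5 lie on chromosome 5 (19171643 to 19181182) with 1 gene between them, at 3.27 and 2.69. Coding identity within these 4 pairs was 44.3% to 54.7%, far below that of the CBF run.

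The members are compact genes. In the annotation 31 of the 40 (77.5%) have a single exon in every transcript, against 14.8% of the listed protein-coding genes, and their median coding length is 673.5 bases, against 1197. Single-exon structure was found in 25 of the 28 members at least 2-fold higher and in 6 of the 12 others. Across all kept genes, 32.3% of single-exon genes were at least 2-fold higher in ago1-36, against 17.4% of genes with more exons. The part of gene structure in the family's values was not tested.

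Motif letters in the 250 bases before the start were counted over all members with values. The G-box core CACGTG was present in 9 of 28 members at least 2-fold higher (32.1%) and in 2 of the 12 others (16.7%), against 8.12% of kept listed genes and 6.49% of all protein-coding genes. The W-box core TTGAC was present in 14 of those 28 and 3 of the 12 (25.0%), against 46.7% of kept listed genes. TATAAA, added after the windows above had been read, was present in 64.3% and 66.7% of these sets, against 47.3% of kept listed genes. CGCGTT was found in 2 members, CBF2 and AT1G19210 (2 of 40, against 3.16% of kept listed genes). CCGAC and GCCGCC, the letters that DREB and ERF proteins bind, were found in 4 and 2 of the 40 members, against 12.6% and 1.91% of kept listed genes. A match here is a description of letters and not a binding site.

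**Figure D4:**
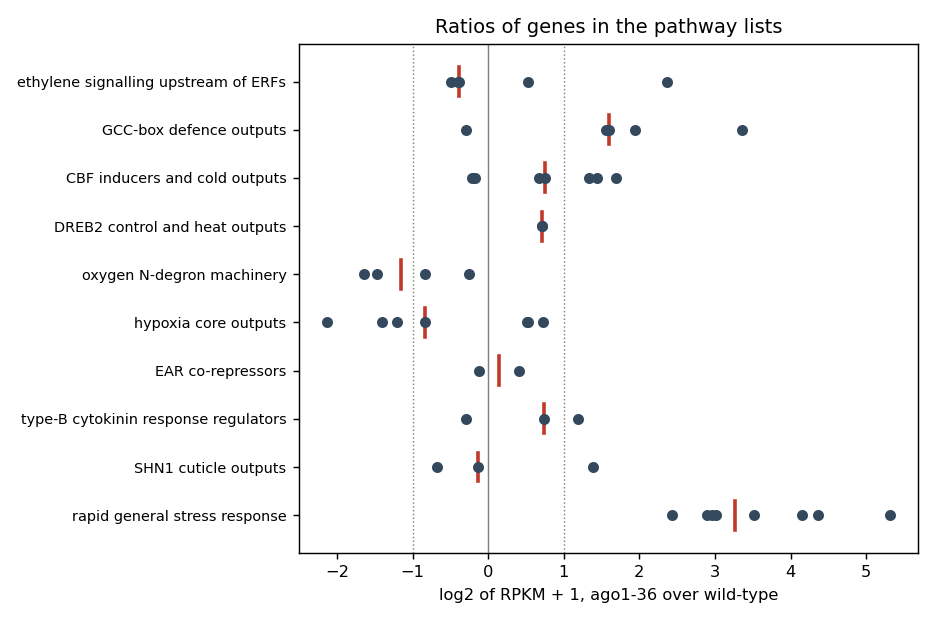
Ratio (log2 of RPKM plus 1, ago1-36 over wild-type) of each kept gene in 10 lists of pathway genes, with the list median in red and 2-fold as dotted lines. The 8 rapid stress genes lie between 2.43 and 5.32, and the hypoxia outputs between -2.13 and 0.72.

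The GCC-box outputs of the ERF activators were mostly higher as well. In that list 4 of 5 genes with values passed 2-fold higher (80.0%, against 19.6% of listed genes), and none passed 2-fold lower (against 8.38%). PR4, a chitin-binding defence protein also called HEL, had 1702 RPKM in ago1-36 and 165 RPKM in the wild type (10.3-fold, interval 9.82 to 10.8). PDF1.2A, the defensin used as a marker of joint ethylene and jasmonate signalling, had only 17 reads in ago1-36 and 0 in the wild type, with a lower counting limit of 4.15-fold. Its 2.85 RPKM is low beside the 1702 RPKM of PR4. PDF1.2A entered through its ago1-36 value alone, which fixed its direction.

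Genes upstream of the ERFs showed no common direction. Among 5 listed ethylene signalling genes and kinases, 1 was at least 2-fold higher (20.0%, near the 19.6% of listed genes), and the median ratio was -0.38. That gene was MPK3, a stress-activated MAP kinase, at 65.2 RPKM in ago1-36 and 11.8 RPKM in the wild type (5.51-fold, interval 4.8 to 6.36). EIN3, the ethylene-stabilised factor that activates ERF1B, had 94.7 RPKM in ago1-36 and 65.2 RPKM in the wild type (1.45-fold, interval 1.37 to 1.53). The co-repressors that EAR-motif proteins recruit stayed under 2-fold, with TPR1 at 9.71 RPKM in ago1-36 and 7.09 RPKM in the wild type and TPR2 at 8.55 RPKM in ago1-36 and 9.42 RPKM in the wild type. In the cuticle list of SHN1, 1 of 3 genes was at least 2-fold higher (33.3%, against 19.6% of listed genes). CYP86A4, a cutin-forming hydroxylase, had 11.1 RPKM in ago1-36 and 3.65 RPKM in the wild type. GPAT4, an acyltransferase of cutin synthesis, had 11.4 RPKM in ago1-36 and 18.8 RPKM in the wild type.

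Rapid stress genes were higher in ago1-36, as most of the family was, while tissue markers went both ways. All 8 genes of the rapid general stress list, which answer touch, wounding, cold and pathogens alike, were at least 4-fold higher, against 6.14% of listed genes. Their summed level was 1456 RPKM in ago1-36 and 121 RPKM in the wild type. WRKY40, a defence regulator, had 215 RPKM in ago1-36 and 4.41 RPKM in the wild type, and JAZ1, a jasmonate repressor, 231 RPKM in ago1-36 and 10.2 RPKM in the wild type. Mesophyll markers were present in both libraries, and all 4 were lower in ago1-36, 2 of them past 2-fold (against 8.38% of listed genes). Their summed levels were 6951 RPKM in ago1-36 and 16644 RPKM in the wild type. Root hair markers were at least 2-fold lower in 3 of 3 listed cases, against 8.38% of listed genes (3.97 RPKM summed in ago1-36 and 28.1 RPKM in the wild type). Among them LRX1 passed the filter through its wild-type value alone, which fixed its direction. Seed markers were at least 2-fold higher in 4 of 4, against 19.6% of listed genes. They summed to 55.7 RPKM in ago1-36 and 0.448 RPKM in the wild type, where 1 of the 4 was at 0 reads. All 4 seed markers passed the filter through ago1-36 alone, which fixed their direction. Of 3 flower markers, SEP3 alone was listed, with 1 read in ago1-36 and 8 in the wild type. The part of these differences in the family's values was not tested.

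Other genes of the domain family were counted for comparison, with no test of a difference. Of the 45 other kept genes with the AP2/ERF domain note, 23 were at least 2-fold higher in ago1-36 (51.1%, against 19.6% of listed genes). At least 2-fold lower were 4 (8.89%, near the 8.38% of listed genes), and the median ratio was 1.01. Of the 45, 8 entered through their ago1-36 value alone and 3 through their wild-type value alone, which fixed their direction. The members' own 70.0% comes from a list drawn up with the values known.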

How the data were processed

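RNA-seq libraries, 1 of ago1-36 and 1 of wild-type seedlings, were prepared with the SMART method from TRIzol-extracted RNA (per the labels' protocols). The submitters' processing notes name TAIR10 and TopHat2 2.0.11. Which program counted reads, over which annotation and with or without strand, is not given in the sources used here. Per the file headers, the authors' deposited table holds RPKM for both genotypes, a log2 fold change of ago1-36 over the wild type, and a GFOLD score. Of 11957 lines naming a gene, 291 repeats were dropped, which left 11666 genes. Of these, 11556 matched the TAIR10.1 annotation, the source of names and coordinates.

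The main measure was log2 of RPKM plus 1, for the 11373 genes that reached 1 RPKM in either library, and 2-fold counted as higher or lower. With 1 library per genotype no test between genotypes was possible. Whole reads were recovered from RPKM and the deposited log2 fold change, which equals the log2 ratio of reads plus 1 less 0.177. Among 2015 genes with 1 to 100 reads in both libraries, 99.9% came out whole within 0.1, and larger numbers are estimates. Totals, from annotated exon lengths, are the most frequent value and approximate. Intervals on folds are exact Clopper-Pearson at 95%, and with the floor of 3 reads they cover counting error only, since reads amplified by PCR and carrying no molecular identifiers are not independent. The smallest read numbers therefore give the widest intervals.

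The members and lists were chosen with earlier results of these data known. All members could be named; of each pathway or marker list, at most the 2 kept genes with the largest absolute ratio, though SEP3 was named after its values were seen. Motifs were chosen after values were seen. Motif windows and coding identity (Biopython 1.88 global alignment) came from TAIR10.1. Python 3.11.15, pandas 2.3.3 and SciPy 1.17.1 were used, and the steps were tested on simulated data. No protein sequence was used here.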

Additional observations from a re-analysis of the deposited data

How the results depend on the processing

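Members kept their direction under every pseudocount, scaling and deposited-column alternative tried: 240 of 240 values kept their sign. A change of pseudocount cannot alter a sign, so those values were fixed in advance. The scaling and deposited-column alternatives moved the members nearest 0 by little, but some members with few wild-type reads by much more. By the authors' deposited log2 fold change, CBF1 went from 2.54 to 5.8 and AT1G19210 from 3.88 to 6.88. Scaled to a sum of 1000000, AT1G19210 stood at 4.73. RAP2.3, the member nearest 0 at 0.33, ran from 0.15 to 0.39 under the scaling and deposited-column alternatives, so few signs could have changed. The number at least 2-fold higher ran from 26 (a filter of 5 RPKM, or without genes that overlap another listed gene) to 29, against 28, and the members' median from 2.53 to 2.87, against 2.54. The number at least 2-fold lower was 1 as reported, 2 with a pseudocount of 0.1, 2 when library sums left out organelle genes and the 50 top genes, 2 by the authors' deposited log2 fold change, and 0 under a filter of 5 RPKM, which removes HRE2. Where the number is 2, CRF2 joins HRE2, and RAP2.12 passes 2-fold higher with pseudocounts of 0.1 and 0.5, under median-of-ratios scaling and when scaled to a sum of 1000000. The order of the highest members depends on the pseudocount: with 0.1, TDR1 (7.77) and AT1G19210 (7.11) stand above RRTF1 (7.01). With low wild-type values, medians of the CBF/DREB1 genes (2.39) and other DREB genes (3.18) depend on the pseudocount, at 4.51 and 4.81 with 0.1. By the authors' deposited log2 fold change these 2 medians were 4.54 and 4.71. The median of all listed genes moved to -0.23 on the authors' scale. The co-repressor median, 0.14, was -0.03 there. No paired analysis was possible because each genotype has 1 library, and leaving out a library was not possible for the same reason. Depth limits the members with under 10 wild-type reads, 9 of the 40, and HRE2 with 8 reads in ago1-36.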
